A study of Homo sapiens with 2 samples.

Results

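Transcripts of 10 genes for CEACAM and LY6 surface proteins were compared between Ca9-22 cells carrying a DLEU1 lentiviral vector and Ca9-22 cells carrying a control vector. Ca9-22 is a line of oral squamous cell carcinoma (OSCC) cells, and DLEU1 is a long noncoding RNA. Both cultures were selected with blasticidin after infection, and total RNA of each was put on 1 Agilent 1-colour array after Cy3 labelling. The control culture differs from the other only in the vector that the labels name, and nothing is said of clones or separate infections. With 1 array per group there were no replicates, no test was possible, and culture and vector cannot be told apart. The genes were CEACAM1, CEACAM5, CEACAM6, CEACAM7, LYPD2, LYPD3, LYPD5, LY6D, SLURP1 and PSCA, taken from a list of symbols. They are 10 of the 43317 gene names on the array, 4 of the CEACAM family and 6 of the LY6/uPAR family, and 15 of the 58201 non-control probes bear their names.

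CEACAM proteins are adhesion molecules of the immunoglobulin superfamily. CEACAM1 spans the membrane and carries inhibitory signalling motifs in its long tail, whereas CEACAM5, CEACAM6 and CEACAM7 are held on the cell surface by a glycosylphosphatidylinositol (GPI) anchor. LY6/uPAR proteins share a small disulphide-rich fold of finger-like loops, and most of them are GPI-anchored, with SLURP1 being secreted. In stratified squamous epithelium several of them mark keratinocyte differentiation, and SLURP1 and its relatives act on nicotinic acetylcholine receptors.

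The upstream sequences of a similar pair with different readouts and of a pair with opposite differences are shown, since both pairs lie in gene clusters of 1 chromosome. Of the 10 genes, 6 had an entry in the RefSeq promoter table (GRCh38.p14), and the 250 bases before the annotated start are printed 5′ to 3′ on the strand of the gene. Capitals mark the letters of the motifs searched on both strands: the TATA box as TATAAA, the AP-1 site as TGAGTCA, the grainyhead site as AACNGGTT, part of the interferon-stimulated response element as GAAANNGAA and the SP1 GC box as GGGCGG. No matches overlapped. CEACAM5 was detected on neither array and CEACAM6 on the DLEU1 vector array, and their upstream sequences were 73.6% identical over the alignment. This was not the closest pair. The CEACAM7 sequence, not printed, was 80.5% identical to that of CEACAM5 and 79.0% to that of CEACAM6. CEACAM7 was also detected on the DLEU1 vector array only, and its sequence held none of the motifs. LYPD3 was higher and LYPD5 lower with the DLEU1 vector, and their upstream sequences were 43.8% identical. That is within the range of 42.5% to 47.1% for pairs of a CEACAM sequence with that of LYPD3 or LYPD5. The intervals were chr19:41708376-41708625 on the plus strand for CEACAM5, chr19:41755280-41755529 on the plus strand for CEACAM6, chr19:43465609-43465858 on the minus strand for LYPD3 and chr19:43802448-43802697 on the minus strand for LYPD5.
CEACAM5: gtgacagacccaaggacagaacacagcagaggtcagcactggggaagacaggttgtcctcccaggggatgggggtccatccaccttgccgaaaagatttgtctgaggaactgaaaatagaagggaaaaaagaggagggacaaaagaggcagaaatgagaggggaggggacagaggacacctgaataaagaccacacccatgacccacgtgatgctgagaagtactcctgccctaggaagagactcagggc
CEACAM6: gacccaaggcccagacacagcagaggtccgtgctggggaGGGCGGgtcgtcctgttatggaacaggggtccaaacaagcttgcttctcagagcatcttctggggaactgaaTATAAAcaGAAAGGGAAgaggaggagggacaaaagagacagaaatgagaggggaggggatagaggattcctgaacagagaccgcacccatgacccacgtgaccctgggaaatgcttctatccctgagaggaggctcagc
LYPD3: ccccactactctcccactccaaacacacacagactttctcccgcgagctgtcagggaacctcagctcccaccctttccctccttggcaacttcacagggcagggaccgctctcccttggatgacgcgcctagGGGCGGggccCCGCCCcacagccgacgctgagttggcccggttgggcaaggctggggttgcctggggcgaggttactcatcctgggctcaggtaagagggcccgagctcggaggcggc
LYPD5: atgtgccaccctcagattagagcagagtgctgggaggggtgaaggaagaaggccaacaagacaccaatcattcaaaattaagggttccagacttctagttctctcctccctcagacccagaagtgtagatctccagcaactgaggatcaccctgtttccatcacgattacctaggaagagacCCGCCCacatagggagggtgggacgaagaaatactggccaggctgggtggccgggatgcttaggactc

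CEACAM6 held a TATAAA at -139 from its start, a GAAAGGGAA at -131 and a GC box at -211, while the CEACAM5 window held none of the 5 motifs. The LYPD3 window held GC boxes at -118 and -108 on opposite strands, and that of LYPD5 held 1 at -68 on the strand opposite to the gene. CEACAM1 had a GAAAGAGAA at -116 and a GC box at -52, and CEACAM7 had no match. Among 35116 promoter windows of the same length, TATAAA occurred in 10.72%, GAAANNGAA in 6.88%, GGGCGG in 42.6%, TGAGTCA in 4.20% and AACNGGTT in 1.49%. No member window held the AP-1 or grainyhead letters. A match describes the letters of the window and was not tested as a binding site.

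The probes of LYPD3 and 2 probes that stayed dark are given because they decide what was seen of these genes. Each has 60 bases, printed as on the array, with positions on hg19. The first LYPD3 probe (A_24_P48495) lies on chr19:43965982-43967319, a span longer than the probe, so it crosses a splice junction, and the second (A_33_P3306264) lies on chr19:43965563-43965622, both on the minus strand. The dark CEACAM1 probe (A_33_P3268507) lies on chr19:43025455-43025514 on the minus strand, 13951 bases from the probe of that gene that was lit. The CEACAM5 probe (A_23_P153301) lies on chr19:42224984-42225043 on the plus strand.
A_24_P48495: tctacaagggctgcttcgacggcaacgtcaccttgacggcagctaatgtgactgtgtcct
A_33_P3306264: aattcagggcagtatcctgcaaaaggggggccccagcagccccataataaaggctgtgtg
A_33_P3268507: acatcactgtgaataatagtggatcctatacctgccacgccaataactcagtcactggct
A_23_P153301: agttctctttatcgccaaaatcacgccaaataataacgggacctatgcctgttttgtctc

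Levels are given as the processed signal of the scanner software and as its log2 value minus the 75th percentile of the array, and a difference is the DLEU1 vector level less the control vector level. A probe was taken as detected where the software marked it well above background, and a gene was called higher or lower at 2-fold or more. For a probe lit on a single array, the fold is a bound against the lowest detected signal of the other array, 14.2 for the control vector and 14.3 for the DLEU1 vector, or the probe's own signal where that was higher. Every member probe had 1 spot, none was saturated or marked as an outlier, and 0 of the 15 lay in a damaged strip of the DLEU1 vector array. In that strip 30.2% of lit spots were at least 2-fold lower, against 12.7% elsewhere. From 282 detected probes with repeated spots, the SD of the difference of a spot was 0.080, and between different probes of a gene it was 0.47 over 4674 genes. Neither value covers the variation between cultures. DLEU1 itself was 6.67-fold higher with its vector by its brightest probe, at a level of 3.17 in control vector cells and 5.91 in DLEU1 vector cells. Its other probes were 1.81-fold and 1.46-fold higher.

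LY6D, SLURP1, PSCA and LYPD3 were higher with the DLEU1 vector, and among the 10 genes the difference was largest for SLURP1. Of the 10 genes, 6 were detected on both arrays, 2 with the DLEU1 vector alone and 2 on neither. Of the 8 detected on at least 1 array, 5 (62.5%) were called higher, where 10.2% of all 22543 detected genes were. The 5 were LY6D, SLURP1, PSCA, LYPD3 and, by a bound, CEACAM6. A further 2 (25.0%), CEACAM1 and LYPD5, were called lower, where 10.0% of all detected genes were. CEACAM6 and CEACAM7 entered the 8 only through the DLEU1 vector array. The members were also chosen with earlier results of these data known, so these shares describe the list and test nothing. The median difference of the 6 genes detected on both arrays was 2.26, within a range of -1.29 to 4.41, and the median over all 20246 such genes was -0.07 with an SD of 0.90. Adding the 2 bounds gave a median of 1.65 over 8 genes. In bulk RNA, a change in the number of cells of a type and a change in RNA per cell cannot be told apart.

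**Figure D1:**
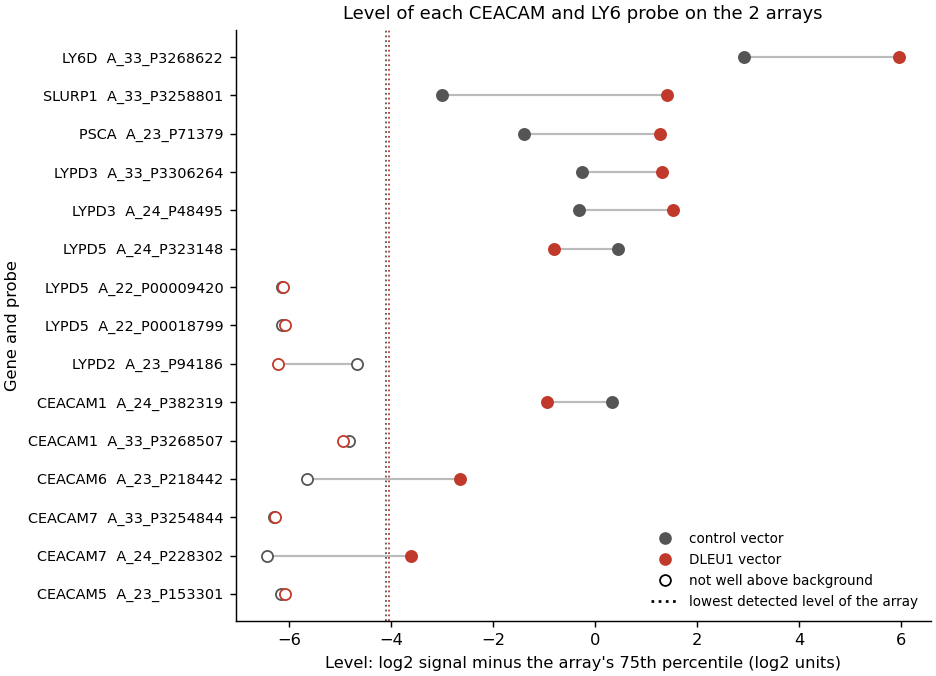
The level of each of the 15 probes (vertical axis) is plotted as log2 signal minus the 75th percentile of its array (horizontal axis), in grey for the control vector and red for the DLEU1 vector, with 1 array each and open circles where the probe was not well above background. The red points of LY6D, SLURP1, PSCA and both LYPD3 probes lie to the right of the grey ones, those of CEACAM1 and LYPD5 lie to the left, and 6 probes are open on both arrays.

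LY6D is a GPI-anchored protein of stratified epithelium that has been used as a marker of squamous cells. Its probe (A_33_P3268622) lies on chromosome 8 from 143866309 to 143866368 on the minus strand of hg19. The signal was 1831 in control vector cells and 14695 in DLEU1 vector cells, and the level went from 2.92 to 5.96. The difference was 3.04, or 8.24-fold, with an error of 0.20 from the signal errors that the software gives. It ranked 116 from the highest among the 20246 genes detected on both arrays. LY6D lay far from the dim range on both arrays.

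SLURP1 encodes a secreted LY6 protein made by keratinocytes, and its loss causes the palmoplantar skin disorder Mal de Meleda. The probe (A_33_P3258801) covers 143822362 to 143822421 of chromosome 8 on the minus strand. Its signal was 30.4 on the control array and 630.0 on the DLEU1 array. This was a difference of 4.41 from a level of -3.0 to one of 1.42, or 21.3-fold with an error of 0.26, and it ranked 34 from the highest. The control vector signal was near the lowest detected one, and the difference was 2.96 with the normexp background correction.

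PSCA, the prostate stem cell antigen, is a GPI-anchored protein of several epithelia. Its probe (A_23_P71379, chromosome 8, 143763976 to 143764035, plus strand) gave a signal of 91.7 in control vector cells and 574 in DLEU1 vector cells. The levels were -1.40 and 1.28, the difference was 2.68 or 6.43-fold with an error of 0.21, and the rank was 173 from the highest. LYPD2, which lies between SLURP1 and LY6D, was not well above background on either array. The signals of its probe (A_23_P94186) were 9.49 and 3.18, so no fold is given.

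LYPD3 is a GPI-anchored, glycosylated relative of the urokinase receptor that is found on suprabasal keratinocytes. Both of its probes were detected on both arrays and went the same way. The splice-spanning probe had signals of 194 (control) and 677 (DLEU1), a difference of 1.84 or 3.59-fold with an error of 0.21. The other gave 202 and 589, a difference of 1.58 or 3.0-fold. The probes differed from each other by less than the SD between probes of a gene, and the gene ranked 544 from the highest.

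LYPD5 lies near LYPD3 on chromosome 19 and had the opposite difference. Its detected probe (A_24_P323148, 44300476 to 44300535, minus strand) had a signal of 332 in control vector cells and 135 in DLEU1 vector cells. The level went from 0.45 to -0.81, a difference of -1.26 or 2.40-fold lower with an error of 0.21. It ranked 1175 from the lowest of the genes detected on both arrays, and CEACAM1 ranked 1108. Its other probes, 2 in number and designed on Ensembl transcripts, were not well above background on either array, with signals from 3.41 to 3.48.

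Among the CEACAM genes, CEACAM1 had a lower signal with the DLEU1 vector and the others were dim. CEACAM1 is an adhesion receptor of epithelial and immune cells that inhibits signalling through the phosphatases it recruits. Its lit probe (A_24_P382319, chromosome 19, 43011504 to 43011563, minus strand) had a signal of 306 in control vector cells and 122 in DLEU1 vector cells. The levels were 0.34 and -0.95, a difference of -1.29 or 2.44-fold lower with an error of 0.21. The probe of the transcript NM_001184816, whose sequence is printed above, was dark with signals of 8.56 and 7.65, so the difference rests on 1 probe. With the normexp correction the differences of CEACAM1 (-0.999) and LYPD5 (-0.97) were just short of 2-fold.

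CEACAM6 is a GPI-anchored CEACAM of epithelia and granulocytes that is often raised in carcinomas. Its probe (A_23_P218442, chromosome 19, 42275434 to 42275493, plus strand) had a signal of 4.80 in control vector cells, not well above background, and 37.7 in DLEU1 vector cells. It was at least 2.73-fold higher with the DLEU1 vector. With the normexp correction the result was still a bound, of 0.51 on the log2 scale, which is too low for a call. CEACAM7, a GPI-anchored protein known from colon epithelium, was likewise lit by the DLEU1 RNA alone, at 1 of its 2 probes. The signal of this probe (A_24_P228302, 42178108 to 42178167, minus strand) was 2.82 in control vector cells and 19.5 in DLEU1 vector cells. That bounds the fold at no less than 1.41, and the gene was not called. The other CEACAM7 probe (A_33_P3254844) was dark on both arrays, with signals of 3.08 (control) and 3.06 (DLEU1). The lit signals of CEACAM6 and CEACAM7 with the DLEU1 vector are dim, that of CEACAM7 only slightly above the lowest detected signal.

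CEACAM5, the carcinoembryonic antigen, was not detected on either array. The probe printed above had signals of 3.41 and 3.48, and its background-subtracted signals were -1.92 and -2.40. The 95th percentile of the same measure over 308 negative control spots was 2.00 for the control and 1.91 for the DLEU1 vector. On this measure CEACAM5 lay below that percentile on both arrays, and the CEACAM6 value of 41.8 with the DLEU1 vector lay above it. CEACAM6 on the control vector array, at 5.25, was above that percentile although the software did not mark it as well above background.

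The rest of the LY6/uPAR family did not share the higher values as a whole. Of 26 other members with a probe 20 were detected, of which 3 were higher and 5 were lower. Among all detected genes, 10.2% were higher and 10.0% were lower. The median difference of the other members detected on both arrays was -0.05. LYPD1, a modulator of nicotinic receptors, was 22.0-fold higher, from a level of -2.26 to 2.21. Its second probe was lit by the DLEU1 RNA alone and was at least 20.1-fold higher. LY6G6C, of the major histocompatibility complex, was at least 11.1-fold higher.

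The array name LYNX1 needs care, because the transcript of its brightest probe (A_33_P3418194) belongs to SLURP2 in RefSeq. SLURP2 encodes a secreted LY6 protein related to SLURP1, and its locus and that of LYNX1 also give a joint transcript. That probe was 7.23-fold higher, from a level of 2.91 to 5.76. The other probe of the same transcript (A_33_P3418175) was detected with the DLEU1 vector only and was at least 52.2-fold higher. The remaining probe named LYNX1, whose Ensembl transcript was not in the RefSeq table, was 2.01-fold higher. For the 15 member probes, 13 carried a RefSeq accession and each was that of the named gene.

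The lower LY6/uPAR genes came from several places in the family. PATE2 was at least 4.11-fold lower, and TEX101, a germ cell protein, was 2.17-fold lower. LY6K was 2.28-fold lower, although its probe lay in the strip with more low spots. CD177 and LYPD6 were lower by 2.07-fold and 2.02-fold. The urokinase receptor PLAUR (-0.65), the complement inhibitor CD59 (0.02) and LY6E (-0.05) were not called.

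Of 16 other CEACAM and PSG genes with a probe, 5 were detected, none (0) was higher and 2 were lower. Among all detected genes, 10.2% were higher and 10.0% were lower, and 5 genes are too few to set against these shares. The lower ones were PSG1 and PSG6, pregnancy-specific glycoproteins, which were at least 2.59-fold and 2.46-fold lower. CEACAM19 (0.51) and CEACAM20 (-0.93) were not called, and the median over the 3 genes detected on both arrays was -0.30. PSG genes are near-identical copies, so a probe of one can bind transcripts of another. CEACAM3 and CEACAM8, the members of granulocytes, were dark.

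**Figure D2:**
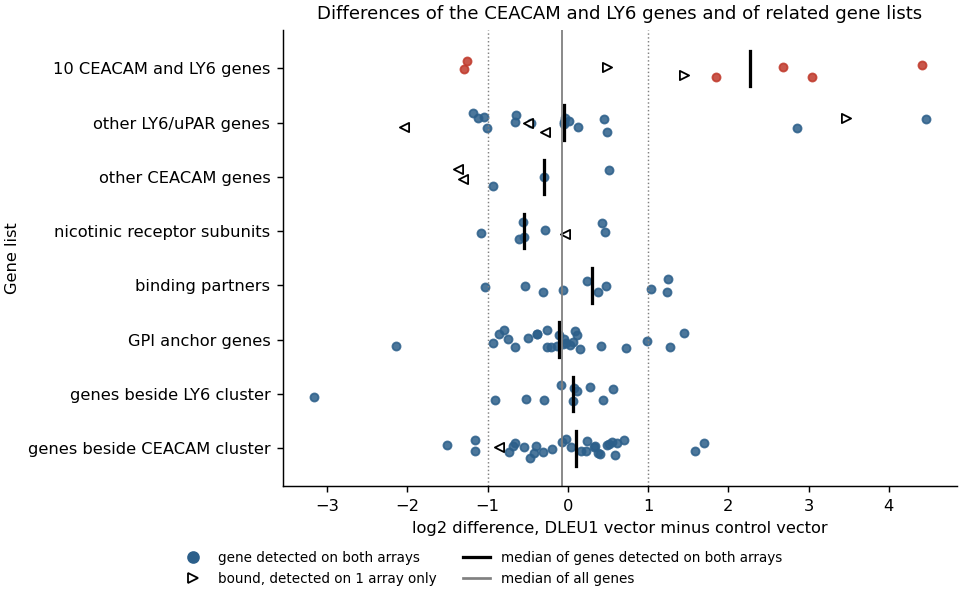
The log2 difference of each gene, DLEU1 vector minus control vector (horizontal axis), is plotted for the 10 genes and for 7 related gene lists, with 1 array per group, triangles for bounds, black bars for medians and a grey line for all genes. The median of the 6 of these 10 genes that were detected on both arrays (2.26) lies to the right of every other median. The other medians run from -0.54 to 0.31, and the dotted lines mark 2-fold.

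The receptors and partners of these proteins had smaller median differences than the members. For the counts below, 10.2% of all detected genes were called higher and 10.0% lower. Of the nicotinic acetylcholine receptor subunits, through which SLURP1 is known to act, 8 of 16 were detected, 0 were higher and 1 (CHRNA6, 2.12-fold) was lower, with a median of -0.54. CHRNA7, the subunit best known as a SLURP1 target, differed by -0.61. Among 12 binding partners of CEACAM proteins and LYPD3, 10 were detected, 3 were higher and 1 was lower, with a median of 0.31. The higher ones were PTPN6 (2.35-fold), a phosphatase recruited by CEACAM1, AGR2 (2.37-fold), a secreted ligand of LYPD3, and LGALS3 (2.06-fold), a galectin. PTPN11, the other phosphatase recruited by CEACAM1, was 2.05-fold lower.

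Genes for the making and handling of the GPI anchor, which most of these proteins carry, had a median of -0.11 over 27 detected genes of 28. PIGZ (2.73-fold) and PGAP1 (2.43-fold) were higher and PIGW (4.42-fold) was lower, while the other 24 were not called.

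PSCA, SLURP1 and LY6D, all called higher, lie near each other on chromosome 8, and the genes among and around them were not all higher. Probes of PSCA, SLURP1, LYPD2 and LY6D fall within 102 kb. Within 100 kb of this stretch, 5 of 8 other named genes were detected, of which 1 (the probe named LYNX1) was higher and 2 were lower. The lower ones were LY6K and THEM6 (8.99-fold), which lie between PSCA and SLURP1. Both of their probes lay in the strip with more low spots. A separate list of 14 neighbours leaves out all LY6 family genes, LY6K and LYNX1 among them. In it 11 were detected, 0 were higher and 1 (THEM6) was lower, with a median of 0.07.

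On chromosome 19, the probes of CEACAM7, CEACAM5 and CEACAM6 fall within 97.4 kb, and CEACAM1 lies further along. In the stretch from CEACAM7 to CEACAM1 with 100 kb on either side, 19 of 26 other genes were detected, 1 was higher and 0 were lower. The higher one was CNFN (cornifelin, 3.26-fold), a protein of the cornified envelope. Around LYPD3 and LYPD5, 17 of 20 other genes were detected, 0 were higher and 4 were lower (CD177, TEX101, ZNF576 and ZNF45). LYPD3 was the only gene of that stretch called higher. A separate list of 32 neighbours on this chromosome covers only some genes of these stretches and leaves out CD177, TEX101 and ZNF45. Its median was 0.10, with 31 detected, 2 higher (CNFN and B3GNT8) and 3 lower (AXL, EXOSC5 and ZNF576).

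**Figure D3:**
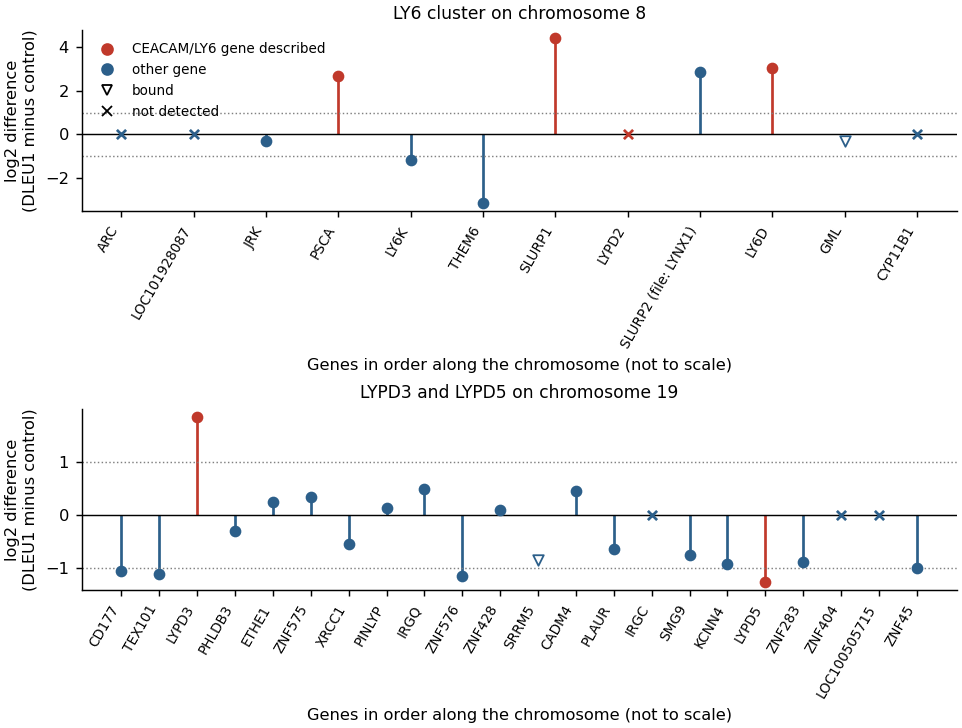
The log2 difference, DLEU1 vector minus control vector (vertical axis), is plotted for genes in their order along the chromosome (horizontal axis, not to scale), with red for the genes described, blue for others, triangles for bounds and crosses for genes not detected, from 1 array per group. PSCA, SLURP1 and LY6D stand at 2.68, 4.41 and 3.04 in the upper panel, and LYPD3 (1.84) and LYPD5 (-1.26) stand on opposite sides of 0 in the lower panel.

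Markers of cell types were read beside these values. All 8 squamous epithelium markers were detected on both arrays, and 5 were called higher with the DLEU1 vector. These were the keratins KRT6A (7.49-fold), KRT14 (7.2-fold) and KRT5 (4.29-fold) and the adhesion proteins DSG3 (5.70-fold) and CDH3 (2.27-fold), while TP63 (0.96 on the log2 scale), SFN (0.0015) and ITGB4 (-0.09) were not called. Their summed level, in multiples of the 75th percentile, was 1011 in control vector cells and 2065 in DLEU1 vector cells. Thus 5 of 8 squamous markers were higher on the same array as LY6D, SLURP1, PSCA and LYPD3, and their part in these differences was not tested.

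CEACAM1 and CEACAM6 are also made by leukocytes, whose markers stayed dim. The summed level of the 4 of 6 leukocyte markers detected was 1.45 and 1.17, with CD14 (3.02-fold lower) the 1 called gene, and for granulocytes it was 0.739 and 0.709 with 3 of 7 detected. Of the granulocyte markers, CEACAM3, CEACAM8, MPO and ELANE were not detected. S100A12 was at least 3.35-fold higher, CD177 was 2.07-fold lower and CSF3R (0.30 on the log2 scale) was not called. Of the colon markers 2 of 6 were detected, with summed levels of 1.18 and 1.84, and CDX2, VIL1, LGR5 and GUCA2A were dark. MUC2, an intestinal mucin, was 3.16-fold higher.

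Among 6 fibroblast markers, 3 were detected, with summed levels of 1.496 and 22.3, nearly all of it from COL1A1 (15.9-fold higher). COL1A2, COL3A1 and DCN were not detected, and LUM was at least 2.47-fold higher. Of 4 endothelial markers, 2 were detected with summed levels of 0.425 and 2.73, of which VWF was 13.01-fold higher and CDH5 (-0.59) was not called, while PECAM1 and KDR were dark. The part of these markers in the member differences was not tested.

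**Figure D4:**
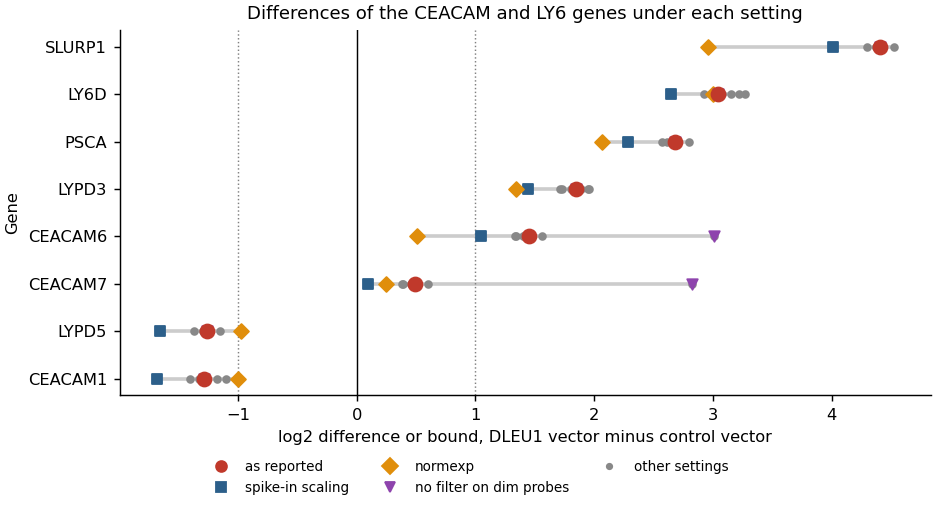
The log2 difference or bound of each of the 8 detected genes (vertical axis) is plotted under every setting that gave it a value. Values are DLEU1 vector minus control vector (horizontal axis), from 1 array per group, with large red points as reported and dotted lines at 2-fold. No gene crosses 0, which a bound cannot do by its definition. CEACAM6 runs from a bound of 0.51 to a difference of 3.01 without the filter on dim probes, and LY6D runs from 2.64 to 3.27.

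How far the values moved with the scaling, the background correction and the filters differed between the genes. LY6D ran from 2.64 to 3.27 over 15 other settings and LYPD3 from 1.34 to 1.96. PSCA ran from 2.07 to 2.80 and SLURP1 from 2.96 to 4.52 over 14 settings. CEACAM1 ran from -1.69 to -0.999 and LYPD5 from -1.66 to -0.97. The dim CEACAM7 ran from a bound of 0.09 to a difference of 2.82 without the filter on dim probes. Requiring a signal of 100 or more on each array left 4 of the genes, of which LYPD3 and LY6D were higher.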

How the data were processed

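The authors hybridised Cy3-labelled RNA of each culture to an Agilent 1-colour array, and per the file headers the deposited intensity values were made by Feature Extraction 10.7.3.1, which subtracted local background and detrended the signal. The authors used GeneSpring GX 13, and the deposited series intensity values differed from the processed signal by at most 0.497%. Neither was normalized between arrays.

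Control and outlier spots were left out, spots of a probe were averaged on the log2 scale, and the 75th percentile over non-control probes was subtracted. A gene took its brightest probe detected on both arrays, or a bound where none was. Nothing could be tested with 1 array per group. Sums over dim genes and folds are descriptions of these arrays. Calculations used Python 3.11.15, R 4.3.3 and limma 3.58.1 (normexp with offset 50, quantile and loess with span 0.3) and were tested on simulated data. Probe names and positions were those of the files (hg19).

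The members, 7 gene lists and marker lists were chosen with earlier results of these data known. All members were named, with the extreme called genes of each list. THEM6 and the chromosome neighbours were named from positions, and single uncalled genes (PLAUR, CD59, LY6E, CEACAM19, CEACAM20, CHRNA7) were named after their values were seen. A total of 15 alternative settings were planned, and 2 were added after the values were seen.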

Additional observations from a re-analysis of the deposited data

How the results depend on the processing

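No paired analysis was possible because each group has 1 array, and no array could be left out. Direction held for the 8 detected genes in each setting that gave them a value, and the signal floor left 4 of them. A bound cannot change sign by its definition, so where CEACAM6 and CEACAM7 were given as bounds their direction could not change. No member probe lay in the strip or was marked as an outlier, so the settings on these could hardly move the members. Of the 116 values of members in these settings, 74 stayed within the spot SD of the reported one, 42 moved by more and 0 changed direction. The median difference of the members was 2.15 when scaled by the median, 2.38 when scaled by detected probes only, 1.87 with spike-in scaling, 1.70 with normexp, 0.29 with a signal floor of 100 (4 members) and 2.68 with the weaker criterion that a spot be positive and significant (7 members). The number of members at least 2-fold lower was 0 with normexp and with a 3-fold threshold, and the number higher was 2 with the signal floor. The fold threshold acts on the counts by construction, and the filters by the genes they keep. For the others the cause was not tested.

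DLEU1 differed by 2.62 when scaled by the median, 2.85 when scaled by detected probes only, 2.92 with quantile normalization, 2.97 with loess, 2.34 with spike-in scaling and 1.38 as the mean of its detected probes. Over all genes, 2299 were higher and 2264 lower as reported. These counts were 1283 and 4861 with spike-in scaling, 1207 and 1453 with normexp, 4232 and 3807 without a filter on dim probes, 1026 and 1433 with the signal floor, 4219 and 3797 with the weaker criterion, 4526 and 5005 at 1.5-fold and 995 and 790 at 3-fold. The share of higher among called genes was 50.4% as reported and 20.9% with spike-in scaling, which moved the median of all genes by -0.40. Median scaling moved it by -0.11 and scaling by detected probes moved it by 0.11. The weaker criterion and the removal of the strip were added after the data were seen.

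Precision is limited by 1 array per group and, for CEACAM6, CEACAM7 and SLURP1, by control vector signals at or near the background.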
